A study of Mus musculus with 6 samples.

Results

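The genes described are 35 imprinted mouse genes, a list that spans *Dlk1* and the other genes of its domain, the Prader-Willi, *Peg10*-*Sgce*, *Kcnq1ot1*, *Peg3* and *H19*-*Igf2* domains, and a set of loci that hold a single listed gene. They were chosen by name and matched through the gene symbols of the NCBIM37 annotation, and 32 of the 35 were found among the 33460 genes of the data. *Rian*, *Mirg* and *Kcnq1ot1* were not matched and are not analysed here. The genes lie on 8 chromosomes, with 17 of them on chromosome 7.

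The data are RNA-seq profiles from *Pdgfrb-eGFP/NG2-DsRed* mouse brains at P6, the sixth postnatal day, with 3 libraries of FACS sorted mural cells and 3 libraries of microvascular fragments. The sorted cells were positive for eGFP, driven by the promoter of *Pdgfrb*, and for DsRed, driven by that of *Cspg4*, the gene of NG2. These reporters together mark pericytes and part of the vascular smooth muscle cells. The fragments, pulled down with anti-CD31 beads from the other sagittal side of the same brains, hold endothelial cells together with their mural cells, so the comparison sets mural cells against a tissue that contains them. Both groups carried both reporter transgenes, and neither was treated. No label says which sorted library and which fragment library came from the same animal. In such bulk samples fewer cells of a type and less RNA per cell cannot be told apart.

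Imprinted genes are transcribed mainly from a single parental copy. The choice follows DNA methylation marks that are set in the germ line at imprinting control regions and kept after fertilization by factors such as ZFP57 and TRIM28. Most imprinted genes sit in clusters in which paternally and maternally expressed genes share a control region, and many act on fetal growth, placenta, metabolism and behaviour. *Dlk1*, which encodes a membrane-bound and shed relative of the Notch ligands, is known as a marker of immature cells and of brain pericytes. The reads were summed over both alleles, so the terms paternally and maternally expressed below are textbook background and not measurements.

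The bases just upstream of 4 start sites are shown because these genes were higher in mural cells and come from 3 different domains. They are RefSeq sequences of the GRCm38.p6 build, 250 bases each, written 5′ to 3′ on the strand of the gene, with each CG dinucleotide, the site of DNA methylation, in capitals. The windows are chr12:109452573-109452822 for *Dlk1*, chr12:109540746-109540995 for the most upstream start of *Meg3* and chr7:62348027-62348276 for *Ndn*, all on the plus strand, and chr7:143757009-143757258 on the minus strand for the most upstream of 3 starts of *Osbpl5*.
Dlk1: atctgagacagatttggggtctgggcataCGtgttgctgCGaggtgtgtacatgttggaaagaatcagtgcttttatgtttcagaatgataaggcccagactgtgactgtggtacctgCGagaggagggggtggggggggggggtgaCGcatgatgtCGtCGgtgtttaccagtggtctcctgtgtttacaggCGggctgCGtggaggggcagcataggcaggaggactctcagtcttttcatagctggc
Meg3: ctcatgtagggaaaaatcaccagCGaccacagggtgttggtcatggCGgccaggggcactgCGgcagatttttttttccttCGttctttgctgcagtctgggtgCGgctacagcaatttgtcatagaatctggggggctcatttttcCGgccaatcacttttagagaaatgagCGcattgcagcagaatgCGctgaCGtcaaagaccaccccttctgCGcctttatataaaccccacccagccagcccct
Ndn: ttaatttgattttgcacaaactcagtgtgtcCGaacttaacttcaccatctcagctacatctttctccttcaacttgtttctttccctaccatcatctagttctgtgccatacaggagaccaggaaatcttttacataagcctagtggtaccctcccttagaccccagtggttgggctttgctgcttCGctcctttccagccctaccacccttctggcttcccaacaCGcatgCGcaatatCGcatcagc
Osbpl5: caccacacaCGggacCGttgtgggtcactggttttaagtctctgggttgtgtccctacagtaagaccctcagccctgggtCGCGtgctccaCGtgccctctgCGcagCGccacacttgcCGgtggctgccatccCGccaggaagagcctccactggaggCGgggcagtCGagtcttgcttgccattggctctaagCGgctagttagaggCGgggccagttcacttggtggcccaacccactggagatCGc

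These stretches hold 8 CG in *Dlk1*, 10 in *Meg3*, 5 in *Ndn* and 14 in *Osbpl5*. The *Meg3* stretch holds the letters TGCCGC, the core of the motif that ZFP57 recognizes when methylated, once on the minus strand, where its match starts at base 61 of the stretch as printed. The sequence table, with windows of 300 bases around each start, held 45 windows for 29 of the 35 genes. *Impact*, *Peg10*, *Sgce*, *H19*, *Cdkn1c* and *Nap1l4* were not in it. TGCCGC, searched on both strands, was found in 10 of the 45 windows (22.2%), which belong to 9 genes, beside 11.6% of all 32841 windows. TATAAA, the letters of a TATA box, was found in 9 of the 45 windows beside 13.6% of all windows, and the median number of CG was 12 in the windows of imprinted genes and 7 in all windows. TGCCGC itself holds a CG, and its share was not compared among windows of equal CG number, so no enrichment of the motif can be read from these shares. Windows of the same gene overlap in part, as do those of *Mest* that hold the motif, and a match of letters is a description and not a site.

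Values are FPKM, sequenced fragments per kilobase of transcript on a scale set for each library by the authors, and are given as mean ± SD with n = 3 libraries in each group. A gene was called higher or lower in mural cells when the limma test on log2(FPKM + 1) gave an adjusted p under 0.05 and the ratio of mean FPKM was above 2 or under 0.5. The log2 fold changes below are on the scale of log2(FPKM + 1), which understates the change of low genes. A gene was tested where 3 or more of the 6 libraries had an FPKM of 1 or more. Counts of sequenced fragments given here are those left behind the FPKM after alignment and removal of duplicates. On protein-coding genes they came to about 5.44 to 5.97 M in the fragment libraries and 1.04 to 2.36 M in the mural cell libraries. Low values are thus less certain in mural cells. The sort marker *Pdgfrb* had an FPKM of 445 ± 39.0 in mural cells and 45.4 ± 10.2 in fragments, and *Cspg4* 257 ± 25.5 and 39.7 ± 6.24. All 11 mural markers were called higher, with ratios of 6.47 to 12.5. The 12 endothelial markers summed to an FPKM of 1671 to 2178 in mural cells and 2303 to 2679 in fragments. Of these, 2 were called lower, *Slco1a4* and *Ly6c1*, and the median ratio was 0.685, with a range of 0.353 to 1.29. The sorted libraries thus held much endothelial RNA, and a ratio near 1 does not show equal levels in mural and endothelial cells. The summed FPKM of 7 fibroblast markers was 502 to 689 in mural cells against 62.3 to 71.6 in fragments, with 5 of the 7 called higher. All 8 microglial markers were called lower, with sums of 108 to 166 and 1564 to 1806. No marker of these lists was at 0 in all 3 mural cell libraries. The third mural cell library had the highest astrocyte sum, 750 against 210 to 254 in the other two, and the highest oligodendrocyte progenitor sum, 157 against 49.5 to 56.0.

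The comparison asks which imprinted genes differ between mural cells and whole microvessels at this age. *Dlk1*, *Meg3*, *Osbpl5*, *Slc38a4* and *Ndn* were called higher in mural cells, and *Peg10* and *Ppp1r9a* were called lower. Of the 32 genes found, 27 passed the filter on low values, and the 5 called higher and 2 called lower stand beside 6.43% and 10.1% of all 14801 genes tested. Over all genes this was 952 higher and 1493 lower, a balance that turned to 1212 and 1080 after quantile normalization. A further 4 genes, *Sgce*, *Grb10*, *Cd81* and *Cdkn1c*, passed the adjusted p toward mural cells with a ratio under 2, which makes 9 of 27 past the adjusted p in that direction beside 9.34% of all genes, and 16 did not pass it. All 3 mural cell libraries lay above all 3 fragment libraries for 12 genes, beside 16.5% of all genes tested, and below them for 4 genes, beside 24.5%. The 12 include *Slc38a4* and *Mkrn3*, which reached an FPKM of 1 in mural cell libraries alone, so the filter fixed their lack of overlap. The median log2 fold change was 0.29 over the 27 genes and -0.12 over all genes. The latter moved to 0.01 after quantile normalization. The plot of levels shows every library of the 27 genes.

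**Figure D1:**
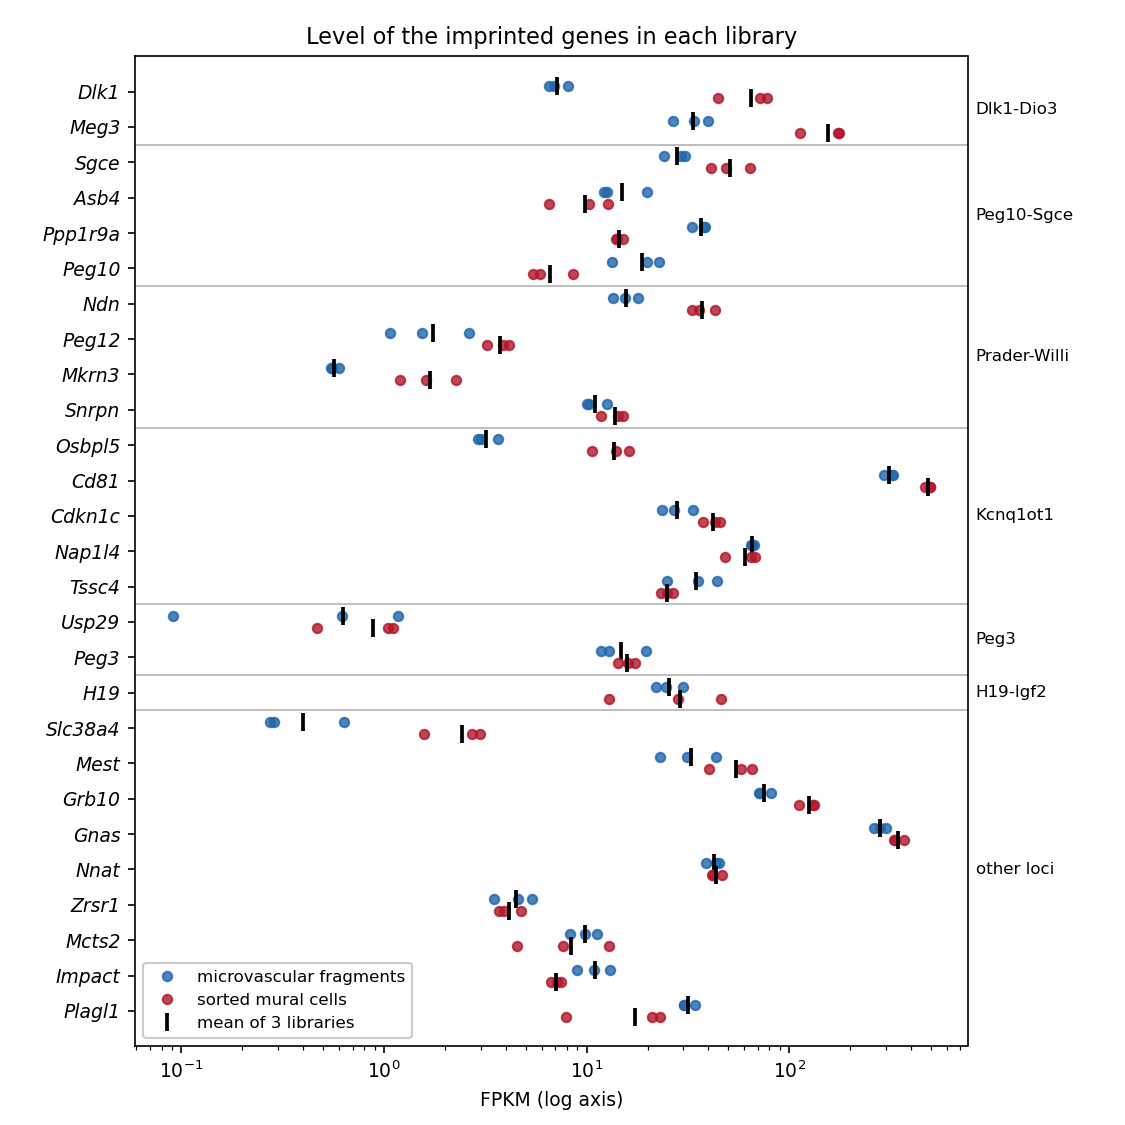
FPKM of the 27 imprinted genes tested in each library on a log axis, grouped by domain, with fragment libraries in blue, mural cell libraries in red and the mean of 3 libraries as a black bar. *Dlk1* lies between 6.53 and 8.10 in fragments and between 44.7 and 77.5 in mural cells, while *Nnat* overlaps between the groups.

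In the *Dlk1*-*Dio3* domain of chromosome 12, the paternally expressed *Dlk1* and the maternally expressed *Meg3*, a long noncoding RNA, were both called higher. *Dlk1* (chr12:110691033-110701546, NCBIM37) had FPKM values of 44.7, 77.5 and 72.0 in mural cells against 8.10, 6.88 and 6.53 in fragments. The lowest mural cell library was well above the highest fragment library, and the spread among the mural cell libraries, an SD of 17.6, was wider than among the fragments, 0.826. The ratio of means was 9.03 and the log2 fold change 2.97 (SE 0.23, limma adjusted p = 2.25e-04), a ratio inside the range of the 11 mural markers. The other listed genes called higher, *Meg3*, *Osbpl5*, *Slc38a4* and *Ndn*, had ratios below that range. *Meg3* (chr12:110779211-110809936), which starts 77.7 kb downstream of *Dlk1* on the same strand, had values of 113, 175 and 177 in mural cells against 34.1, 39.6 and 26.7 in fragments. As for *Dlk1*, the first mural cell library was the lowest of the sorted libraries. The ratio was 4.64 and the log2 fold change 2.17 (SE 0.22, limma adjusted p = 5.92e-04). Over all alternatives run, the log2 fold change was 2.83 to 3.22 for *Dlk1* and 2.02 to 2.38 for *Meg3*.

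*Meg3* was the more abundant of the pair in every library, and the ratio of *Dlk1* to *Meg3* was larger in every mural cell library than in any fragment library. Computed as a ratio of FPKM + 1 within each library, it was 0.399, 0.446 and 0.410 in mural cells against 0.259, 0.194 and 0.272 in fragments. The mean log2 difference was 0.80. A two-sided exact permutation test gave p = 0.1, the smallest p that 3 against 3 libraries allow, and 0.117 adjusted over the 7 pairs compared. The files list 74 of the 79 miRNA and snoRNA genes annotated between *Dlk1* and the end of *Mirg*, all at 0 in the 6 libraries. The libraries were not made for small RNAs, so these values of 0 do not show that such RNAs were absent. An RNA on the strand opposite to *Meg3*, *Gm17639*, overlaps it, and the counting is not stated to have used strand.

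*Begain*, which encodes a protein associated with the postsynaptic density and lies 399.4 kb upstream of *Dlk1*, belongs to a wider list of imprinted and neighbouring genes. It had FPKM values of 23.2, 25.2 and 22.3 in mural cells against 4.91, 4.15 and 1.67 in fragments, and was called higher (ratio 6.60, log2 fold change 2.50, SE 0.32, limma adjusted p = 0.00163). The map of 3 domains sets these genes at their distances.

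**Figure D2:**
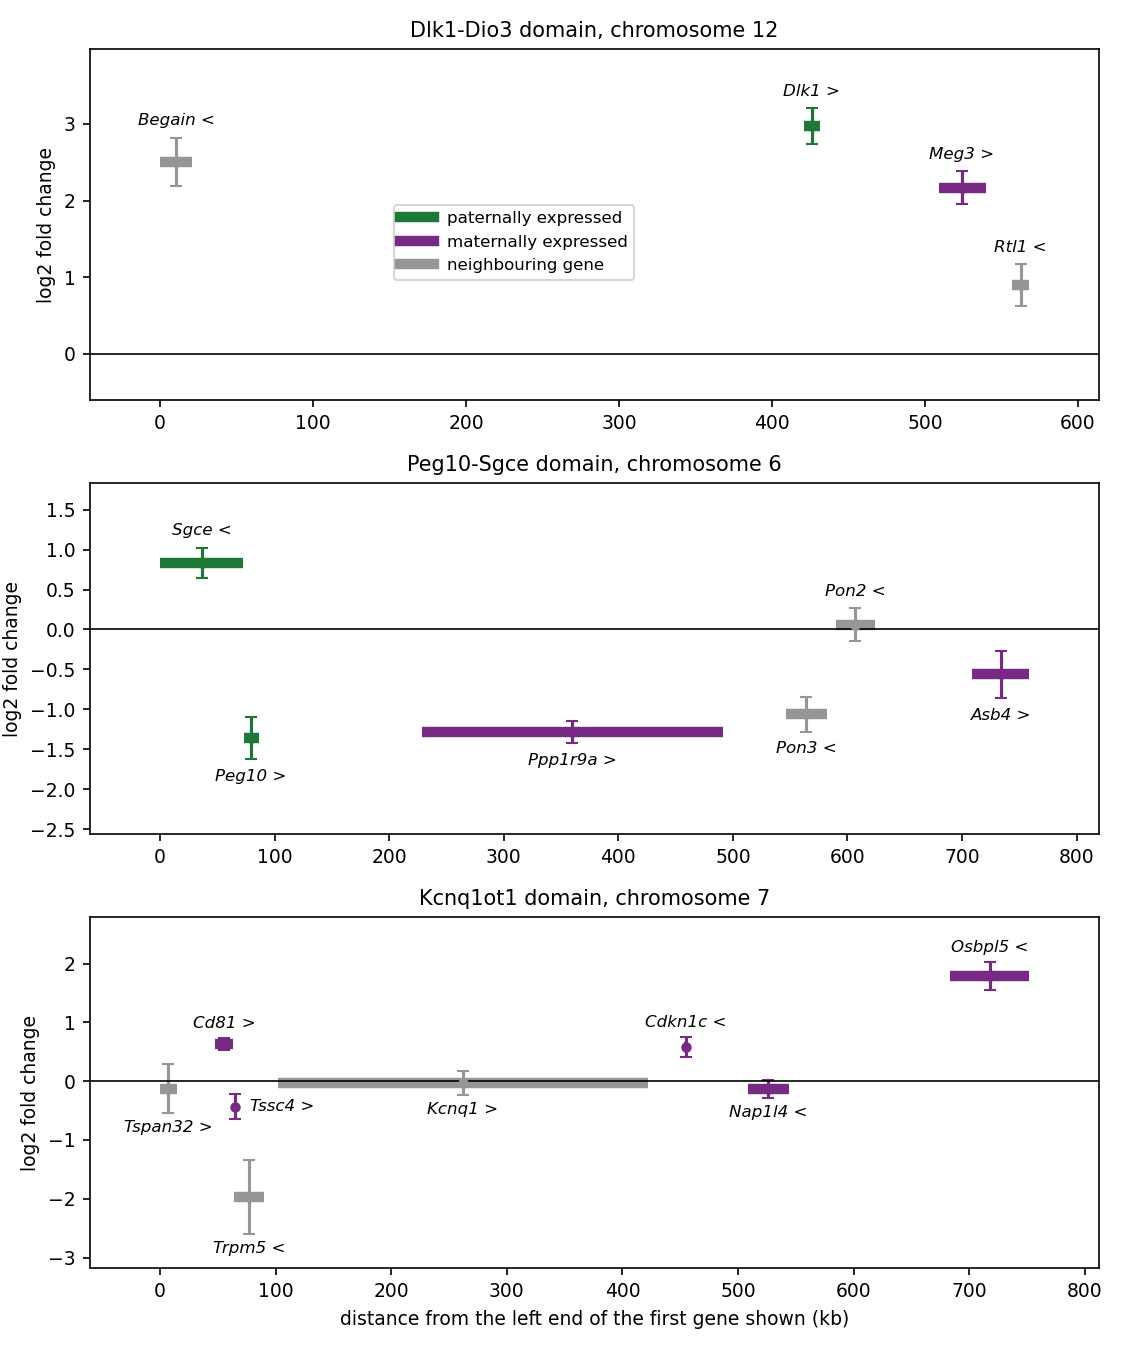
Log2 fold change of FPKM + 1 (mural cells over fragments, error bars are the SE) against distance in kb from the left end of the first gene drawn, for the tested genes of 3 imprinted domains. Green bars are paternally expressed and violet bars maternally expressed listed genes, grey bars are genes of the wider list in the same domains, and > or < gives the strand. *Dlk1* and *Meg3* are at 2.97 and 2.17 in the upper panel, *Sgce* is at 0.83 and its neighbour *Peg10* at -1.36 in the middle panel, and *Osbpl5* stands at 1.79 in the lower panel, where *Nap1l4* is at -0.13.

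In the Prader-Willi domain of chromosome 7, where all 5 listed genes are paternally expressed, *Ndn* was called higher, *Mkrn3*, *Peg12* and *Snrpn* did not pass the test, and *Magel2* was below the filter. *Ndn* (chr7:69493163-69494814) encodes necdin, a MAGE family protein known for restraining cell proliferation. Its FPKM was 33.1, 36.1 and 42.8 in mural cells against 15.5, 17.9 and 13.5 in fragments. The groups did not overlap, and mean levels differed 2.39 times (log2 fold change 1.21, SE 0.17, limma adjusted p = 0.00238). These values rest on 85, 39 and 49 sequenced fragments in the mural cell libraries and 103, 110 and 91 in the fragment libraries. *Snrpn*, which encodes a spliceosomal protein, had 11.8, 15.2 and 14.3 in mural cells against 10.2, 12.7 and 10.1 in fragments, with overlapping groups and a log2 fold change of 0.30 (95% interval -0.15 to 0.75). The ratio of *Snrpn* to *Ndn* within a library was accordingly 0.350 to 0.436 in mural cells and 0.682 to 0.766 in fragments (exact permutation p = 0.1, two-sided, adjusted over 7 pairs 0.117).

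*Mkrn3*, which encodes a zinc finger protein linked to the timing of puberty, had 1.69 ± 0.545 in mural cells and 0.567 ± 0.0289 in fragments. *Peg12*, an intronless relative of the *Frat* genes of Wnt signalling, had 3.75 ± 0.471 and 1.76 ± 0.803. For both genes all mural cell libraries were above all fragment libraries, with limma adjusted p of 0.1003 and 0.0981. The counts behind them were small, with 3 to 6 sequenced fragments per library for *Mkrn3* and 7 to 30 for *Peg12*. *Mkrn3* reached the FPKM of 1 that the filter required in mural cell libraries alone, so its lack of overlap was fixed by the filter. *Magel2*, a further MAGE family gene 27.1 kb from *Ndn*, was at 0 in all 3 mural cell libraries, where 3 sequenced fragments would give an FPKM of 0.380, 0.903 and 0.854, and at 0 to 0.0982 in fragments, so that a difference was not detectable at this depth.

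In the *Peg10*-*Sgce* domain of chromosome 6, *Peg10* and *Ppp1r9a* were called lower, *Sgce* passed the adjusted p toward mural cells with a ratio under 2, and *Asb4* did not pass. The paternally expressed neighbours *Sgce* and *Peg10* are transcribed away from each other from starts 101 bases apart in NCBIM37. *Peg10* (chr6:4697306-4710514), a gene derived from a retrotransposon and needed for placenta formation, had FPKM values of 5.87, 5.42 and 8.57 in mural cells against 22.8, 13.4 and 19.9 in fragments. No library of the one group reached the other, and it was called lower (ratio 0.354, log2 fold change -1.36, SE 0.27, limma adjusted p = 0.0107). The call was lost without fragment library 1 or without fragment library 3 (limma adjusted p = 0.0525 and 0.0554), while the direction held in each fit.

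*Sgce*, which encodes the membrane protein epsilon-sarcoglycan, had 48.7, 64.1 and 41.1 in mural cells against 24.1, 29.4 and 30.7 in fragments, again without overlap. Its ratio was 1.83 and its log2 fold change 0.83 (SE 0.19, limma adjusted p = 0.0193), so it passed the adjusted p but not the ratio of 2, and the adjusted p was 0.0131 to 0.0847 when single libraries were left out. Without mural cell library 3 it was called higher, with a log2 fold change of 0.98 (limma adjusted p = 0.0131). The ratio of *Peg10* to *Sgce* within a library was 0.138, 0.0987 and 0.227 in mural cells against 0.948, 0.473 and 0.661 in fragments. This mean log2 difference of -2.19 was the widest of the 7 pairs compared, and its exact two-sided permutation p was 0.1, the smallest possible, or 0.117 adjusted over the pairs.

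*Ppp1r9a* (chr6:4853004-5115661), which encodes neurabin, an actin-binding protein of synapses, had 15.1, 14.2 and 14.0 in mural cells against 38.5, 38.1 and 33.2 in fragments. The values were tight within each group, and it was called lower (ratio 0.393, log2 fold change -1.29, SE 0.14, limma adjusted p = 7.42e-04). Neuronal markers summed to an FPKM of 23.9 to 42.7 in mural cells and 45.8 to 62.8 in fragments, and microglial markers were lower as given above. The part of these cells in the levels of *Peg10* and *Ppp1r9a* was not tested. *Asb4*, which encodes a subunit of a ubiquitin ligase complex, had 9.88 ± 3.17 and 14.9 ± 4.37, with overlapping groups and a log2 fold change of -0.56 (95% interval -1.26 to 0.13). *Pon3*, a paraoxonase gene of the wider list 55.2 kb downstream of *Ppp1r9a*, was called lower, with 10.7 ± 2.67 in mural cells and 23.2 ± 3.60 in fragments (log2 fold change -1.06, limma adjusted p = 0.0126). Its call was lost without fragment library 1 or 3 (0.0555 and 0.0666).

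**Figure D3:**
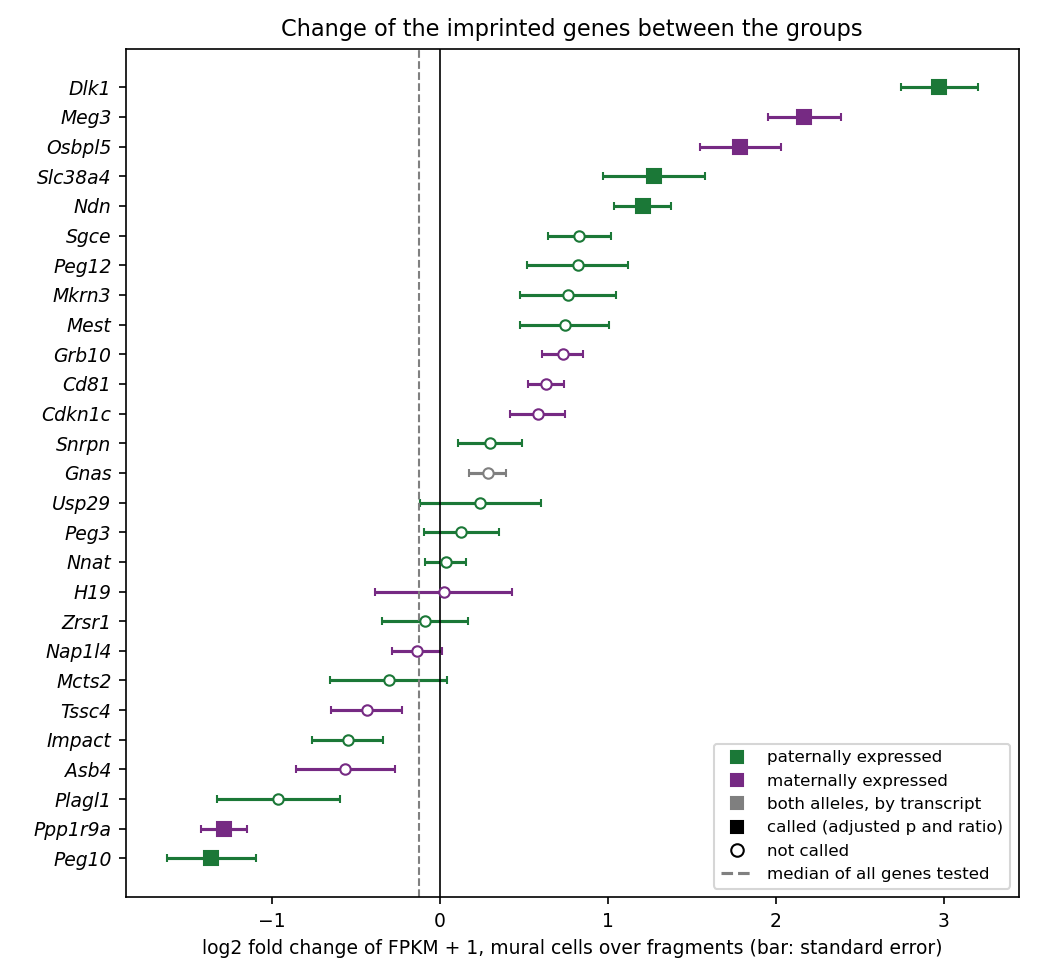
Log2 fold change of FPKM + 1 (mural cells over fragments, bars are the SE from limma, n = 3 and 3 libraries) of the 27 imprinted genes tested, in order of size, with paternally expressed genes in green, maternally expressed genes in violet and *Gnas* in grey. Filled squares are the 7 called genes, open circles the other 20, and the dashed line at -0.12 is the median of all genes tested. Green and violet genes are found at both ends.

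The *Kcnq1ot1* domain of chromosome 7 held 9 listed genes, of which 8 were found and 5 tested. *Osbpl5* was called higher, *Cd81* and *Cdkn1c* passed the adjusted p alone, and *Nap1l4* and *Tssc4* did not pass. *Osbpl5* (chr7:150874667-150942890) encodes a lipid transfer protein of contact sites between the endoplasmic reticulum and the plasma membrane, and is imprinted mainly in placenta. Its FPKM was 14.0, 16.2 and 10.7 in mural cells against 3.00, 3.64 and 2.90 in fragments. The groups were far apart, 4.27 times in the means (log2 fold change 1.79, SE 0.24, limma adjusted p = 0.00198). *Nap1l4*, a histone chaperone gene 139.7 kb away, had 60.4 ± 10.4 and 65.6 ± 1.11, with a log2 fold change of -0.13 (95% interval -0.48 to 0.21). The ratio of *Nap1l4* to *Osbpl5* was 2.88 to 5.67 in mural cells and 14.3 to 16.9 in fragments (exact permutation p = 0.1, two-sided, adjusted 0.117).

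*Cd81*, which encodes a tetraspanin of the cell surface, was the most abundant imprinted gene in both groups. It had 494, 494 and 467 in mural cells against 324, 320 and 293 in fragments, a ratio of 1.55 without overlap (limma adjusted p = 0.00525). *Cdkn1c*, which encodes the cyclin-dependent kinase inhibitor p57, had 45.7, 43.3 and 37.5 in mural cells against 26.9, 33.4 and 23.6 in fragments, a ratio of 1.51 (limma adjusted p = 0.0423). Its groups did not overlap, but the adjusted p was up to 0.160 when single libraries were left out. *Tssc4*, which encodes a factor of spliceosome assembly, had 24.9 ± 1.73 and 34.8 ± 9.61, with overlap and a log2 fold change of -0.43 (95% interval -0.93 to 0.06). *Trpm5* overlaps it on the opposite strand.

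The other 3 genes of the domain were below the filter. *Phlda2*, a growth-restraining gene of the placenta, was at 0 in all mural cell libraries and at 0 to 0.776 in fragments, and 3 sequenced fragments would give an FPKM of 3.04 to 7.23 in mural cells, so that a difference was not detectable. *Ascl2*, which encodes a transcription factor of the trophoblast, had 0 to 0.401 in mural cells and 0.776 to 1.07 in fragments. *Slc22a18*, which encodes an organic cation transporter-like protein, was at 0 in mural cell libraries 1 and 3 and at 2.28 in library 2, and had 0.199 to 1.21 in fragments.

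*H19* and the *Peg3* domain did not pass the test. *H19*, a maternally expressed noncoding RNA that hosts a miRNA, had 46.1, 12.97 and 28.1 in mural cells against 22.1, 29.9 and 24.6 in fragments. The mural cell libraries spread on both sides of the fragments, and the interval of the log2 fold change was wide, from -0.93 to 0.98. Its paternally expressed partner *Igf2* had an FPKM of 308 ± 47.4 in mural cells and 84.3 ± 13.4 in fragments, and the receptor gene *Igf2r* 83.2 ± 9.95 and 34.7 ± 1.83. *Peg3*, which encodes a zinc finger protein, had 15.9 ± 1.58 and 14.8 ± 4.21, with a log2 fold change of 0.13 (95% interval -0.39 to 0.65). *Usp29*, a gene of the ubiquitin protease family whose RNA starts beside that of *Peg3*, had 0.879 ± 0.357 and 0.630 ± 0.543 on 1 to 12 sequenced fragments per library. The ratio of *Peg3* to *Usp29* overlapped between the groups (exact permutation p = 1.0, two-sided). *Zim1*, a zinc finger gene, was below the filter, at 0 to 0.489 in mural cells and 0.0911 to 0.506 in fragments.

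**Figure D4:**
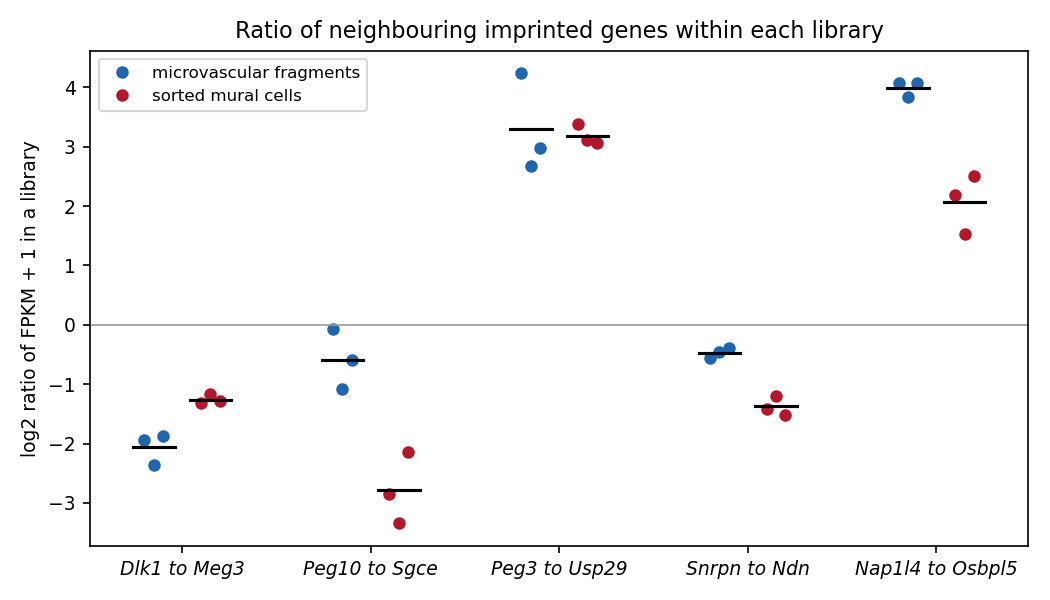
Log2 ratio of FPKM + 1 of neighbouring imprinted genes within each library for 5 of the 7 pairs compared, with fragment libraries in blue, mural cell libraries in red and the mean of 3 libraries as a black bar. For *Dlk1* to *Meg3* the means are -1.26 in mural cells and -2.06 in fragments, for *Peg10* to *Sgce* -2.78 and -0.59, and for *Peg3* to *Usp29* the groups overlap.

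The remaining pairs, *Ndn* to *Magel2* and *Cdkn1c* to *Phlda2*, have a partner at 0 in all mural cell libraries, so their ratios were set by the 1 added to each FPKM. Their mean log2 differences were 1.28 and 1.03, each with an exact permutation p of 0.1.

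Among the loci with a single listed gene, *Slc38a4* was called higher, *Grb10* passed the adjusted p, and the others did not pass. *Slc38a4* (chr15:96825254-96886387) encodes a sodium-coupled transporter of neutral amino acids. Its FPKM was low, 2.72, 1.59 and 2.97 in mural cells against 0.638, 0.275 and 0.288 in fragments. The groups did not overlap and the means differed 6.06 times (log2 fold change 1.28, SE 0.30, limma adjusted p = 0.0226). The gene was tested only because all 3 mural cell libraries reached an FPKM of 1, which no fragment library did. Its lack of overlap was thus fixed by the filter, and its adjusted p follows that selection. With a single fragment library left out the limma adjusted p was 0.102 to 0.152, and with a single mural cell library left out the gene no longer passed the filter. *Grb10*, which encodes an adaptor that dampens insulin and growth factor receptor signalling, had 133, 131 and 111 in mural cells against 81.7, 71.7 and 71.1 in fragments. It was clearly separated between the groups at a ratio of 1.67 (log2 fold change 0.73, SE 0.12, limma adjusted p = 0.00507).

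*Plagl1*, which encodes a zinc finger transcription factor known to act on other imprinted genes, had 21.0, 7.90 and 23.0 in mural cells against 34.3, 30.4 and 30.2 in fragments. All mural cell libraries were lower, library 2 the most, and the log2 fold change of -0.96 did not pass (SE 0.36, limma adjusted p = 0.105). Without mural cell library 2 the log2 fold change was -0.51 (limma adjusted p = 0.0510). *Mest*, which encodes an enzyme of the hydrolase family, had 65.5, 58.1 and 40.4 in mural cells against 31.4, 23.0 and 43.4 in fragments, with overlap (log2 fold change 0.74, limma adjusted p = 0.0880). *Gnas*, which encodes the stimulatory G protein alpha subunit and has transcripts from either allele, had 343 ± 21.6 and 282 ± 18.8. Its groups did not overlap, but the log2 fold change of 0.29 did not pass (95% interval 0.03 to 0.55, limma adjusted p = 0.112).

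*Nnat*, which encodes a small membrane protein of developing brain, had nearly equal values of 43.5 ± 2.79 and 42.4 ± 3.16, and the 95% interval of its log2 fold change ran from -0.25 to 0.32. *Impact*, a regulator of the translation response to amino acid shortage, had 7.15, 7.48 and 6.67 in mural cells against 10.8, 8.9985 and 13.03 in fragments. Its groups did not overlap, and the log2 fold change was -0.55 (limma adjusted p = 0.109). *Zrsr1* and *Mcts2*, retrogenes of a splicing factor and of a translation factor, had log2 fold changes of -0.09 and -0.30, with intervals of -0.69 to 0.51 and -1.12 to 0.51. They share sequence with the parent families of *Zrsr2* and *Mcts1*, and *Mcts2* lies inside *H13* on the same strand, so their values are uncertain where reads could be shared. *Nnat*, *Mest*, *Gnas*, *Cd81* and *Zrsr1* each overlap a gene of the opposite strand, and reads from either strand cannot be told apart if strand was not used in counting.

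The counts by parental allele are small and stand beside 6.43% called higher and 10.1% called lower of all genes tested. Of the 18 paternally expressed genes, 17 were found and 16 tested, with 3 called higher and 1 lower and a median log2 fold change of 0.27. The 3 include *Slc38a4*, which passed the filter through the mural cell libraries alone. Of the 16 maternally expressed genes, 14 were found and 10 tested, with 2 called higher and 1 lower and a median of 0.30. The median level of paternally expressed genes was an FPKM of 11.1 in mural cells and 10.98 in fragments, and that of maternally expressed genes 35.6 and 34.1, beside 12.1 and 12.9 for all genes tested. The 6 genes whose imprinting is mainly placental, *Ascl2*, *Nap1l4*, *Osbpl5*, *Tssc4*, *Cd81* and *Ppp1r9a*, count among the maternally expressed ones, with 5 tested, 1 called higher and 1 lower. The difference between paternally and maternally expressed genes was not tested.

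In order of level in mural cells, *Cd81*, *Gnas*, *Meg3* and *Grb10* had a mean FPKM above 100, and 99.7%, 99.3%, 97.8% and 96.8% of all tested genes had a lower one. *Dlk1* followed, above 90.9% of genes, and then *Nap1l4*, *Mest* and *Sgce*. The last 4 had means of 64.7, 60.4, 54.7 and 51.3 with SDs of 10.4 to 17.6, so neighbours in that order did not differ beyond their spread. At the low end, 5 of the tested genes, *Zrsr1*, *Peg12*, *Slc38a4*, *Mkrn3* and *Usp29*, had a mean under 5.

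The genes called higher are also read beside the fibroblast markers, since meningeal and perivascular fibroblasts can carry *Pdgfrb*, although the sort required NG2-DsRed as well. Of these markers, *Col1a1* had an FPKM of 111 in mural cells and 8.61 in fragments, and *Col1a2* 221 and 18.3. *Pdgfra* had 12.6 and 7.93, a ratio of 1.59, and *Slc6a13* had 5.67 and 2.59 with overlap, and neither was called. The study's own catalogue of mural cell-enriched genes lists *Col1a2* and *Col3a1* but not *Col1a1*, *Lum* or *Dcn*. It was built in part from these same libraries, so a listing there cannot tell mural cells from fibroblasts as the source. The ratios of the fibroblast markers, with a median of 7.33, span those of *Dlk1*, *Meg3*, *Osbpl5*, *Slc38a4* and *Ndn*. The part of fibroblasts in these levels was not tested.

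A wider list of 35 other imprinted genes and neighbours of the same domains was read in the same way. Of these, 34 were found and 25 tested, with *Begain* and *Dcn* called higher, *Pon3* called lower, beside 6.43% and 10.1% of all genes tested, and a median log2 fold change of -0.03. *Dcn*, which encodes the matrix proteoglycan decorin, is imprinted in placenta and is also one of the 7 fibroblast markers. Its FPKM was 29.0, 20.1 and 38.7 in mural cells against 2.98, 4.12 and 4.88 in fragments (ratio 7.33, log2 fold change 2.57, limma adjusted p = 8.88e-04). Of 15 genes that set or keep imprints, such as *Zfp57*, *Trim28*, *Ctcf* and the DNA methyltransferase and TET genes, 12 were tested. By limma 0 were called in either direction, 0 had an unadjusted p under 0.05, and the median log2 fold change was -0.14, close to that of all genes. *Zfp57* had a mean FPKM of 13.3 in mural cells and 12.1 in fragments, *Trim28* 90.0 and 91.1, and *Dnmt1* 27.3 and 33.4, while *Dnmt3l* was listed at 0 in every library.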

How the data were processed

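RNA-seq libraries of 3 samples of sorted mural cells and 3 samples of microvascular fragments were analysed. According to the submitters' processing notes and the methods of the study, the authors used TopHat2 2.0.4 to align read pairs to NCBIM37, Picard 1.92 to remove duplicates and Cufflinks 2.2.1 for FPKM, and the deposited files hold 1 FPKM value per Ensembl gene and library. The scaling between libraries and the use of strand are not given in the sources used here. Median-ratio factors of the libraries were 0.993 to 1.022. Libraries of rRNA-depleted total RNA were made with a stranded kit.

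Log2(FPKM + 1) was fitted with limma 3.58.1 (R 4.3.3) with an intensity trend, over 14801 genes (FPKM of 1 or more in 3 or more libraries), and p-values are two-sided with Benjamini-Hochberg adjustment over all of them. Since FPKM are not counts, no count test was used. The replicates are separate samples by their labels. Ratios of neighbouring genes were compared with an exact permutation test. Sequenced fragments were recovered for genes with a single transcript from the FPKM of 1 fragment, and 98.4% to 98.9% of low values were whole within 0.1 fragments. These counts, and the limits set by 3 fragments, cover counting error only. The totals over protein-coding genes used the longest transcript of each gene, also where it has several, and are rough estimates. The fit was tested on simulated data. Python 3.11.15, pandas 2.3.3 and NumPy 2.4.6 were used for the other steps.

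The imprinted genes, the lists of markers and neighbours and the tests were chosen with earlier results of these data known. All 35 listed genes are named, and of the wider imprinted list and the imprint maintenance list the genes that were called. Other genes appear as overlaps, domain neighbours in the map, markers or examples of level, chosen after their values were seen. Other settings tried were quantile normalization, median-ratio scaling, a replicate block, a pseudocount of 0.1, variances without a trend, a filter at an FPKM of 5 or none, an adjusted p under 0.01, the fold limit on the limma estimate, leaving out genes at 0 in a group, protein-coding genes only, and leaving out each library. The alternatives for the ratios of pairs were chosen after seeing the data.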

Additional observations from a re-analysis of the deposited data

How the results depend on the processing

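The calls of *Dlk1*, *Meg3*, *Osbpl5*, *Ndn* and *Ppp1r9a* held under every alternative in which the gene was tested (*Meg3* is not protein-coding and left the fit of protein-coding genes). *Slc38a4* was lost with the replicate block (adjusted p = 0.0541), at an adjusted p under 0.01 and with any single library left out, and was below the filter at an FPKM of 5. Genes lower in mural cells came to 948 at that filter, 845 at an adjusted p under 0.01 and 607 to 1733 when a library was left out, beside 1493. Imprinted genes called lower were 1 at an adjusted p under 0.01, where *Peg10* was lost, and 1 to 2 with a library left out. Paternally expressed genes called higher were 5 after quantile normalization, where *Mkrn3* and *Peg12* were gained, and 4 without an intensity trend, where *Mkrn3* was gained (adjusted p = 0.0347), and those called lower were 0 at an adjusted p under 0.01 and 0 to 1 with a library left out. Maternally expressed genes called higher were 1 among protein-coding genes, and those called lower were 2 without a filter. Of the wider list, 4 were called higher after quantile normalization, and 2 were called lower with the replicate block or without a filter, 0 at an adjusted p under 0.01 and 0 to 2 with a library left out. Quantile normalization turned the log2 fold changes of *Nnat* to -0.00196 and of *Zrsr1* to 0.13. With a library left out, the values ran from -0.00325 to 0.34 for *Peg3*, -0.0201 to 0.41 for *Usp29*, -0.0254 to 0.0757 for *Nnat*, -0.23 to 0.0270 for *Zrsr1*, -0.64 to 0.0267 for *Mcts2*, -0.38 to 0.49 for *H19* and -0.22 to 0.0146 for *Nap1l4*, none of which passed the test, and the ratio of *Peg3* to *Usp29* ran from -0.43 to 0.36 in log2. The cause of these changes was not tested. The numbers were not taken as pairs, since no label says that they mark the same animal. Same-numbered libraries of the groups had correlated deviations of only 0.0203 to 0.0818, although 6 of 6 libraries were closest to the one with their own number. These values do not settle whether the numbers pair the libraries. The replicate block changed no other call of a listed imprinted gene. The lower number of fragments left in the sorted samples after alignment and removal of duplicates bears most on *Magel2*, *Phlda2*, *Mkrn3*, *Usp29* and other low genes.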
